A study of Mus musculus with 18 samples.

Results

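Growing myoblasts of 1 clone labelled as a knockout of the Dlk1-Dio3 cluster were compared with growing myoblasts of the vector control, across all genes. The comparison takes every library whose title names the growth stage together with the knockout clone (2-7) or the vector population (px). These were 6 of the 18 libraries of the series, 3 (replicates A, B and C) on each side. All cells were C2C12, an established mouse myoblast line, kept in medium with 10% fetal bovine serum, and polyadenylated RNA was sequenced. The control was a sorted population that had received the pX458 vector alone (a plasmid with Cas9 and EGFP). The knockout cells had received pX458 constructs with pairs of guide RNAs against the proximal regulatory region of Meg3, and were grown up from a single sorted cell. Clone and genotype therefore cannot be told apart, and the control is a population, not a clone. Of the other groups, myoblasts of 1 clone labelled as an overexpressor of the cluster (2-4, edited with the same kind of guides) were used to test where the knockout clone stands apart. Control myotubes, the vector population after its change to 2% horse serum and taken on day 3 of differentiation, were used as a reference for levels.

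The Dlk1-Dio3 cluster is an imprinted region. Its maternal chromosome gives long noncoding RNAs (Meg3, Rian, Mirg) that host many microRNAs and small nucleolar RNAs, and its paternal chromosome gives the protein-coding genes Dlk1, Rtl1 and Dio3. C2C12 myoblasts divide in rich medium and, when serum is withdrawn, leave the cell cycle, turn on the factors Myog and Mef2c, build sarcomeres and fuse into myotubes. The control cells in growth medium should thus sit before that switch, and the question put by the comparison is how cells of the edited clone differ from them at this stage.

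The targeted gene came first. Meg3 (a long noncoding RNA gene on chromosome 12) had 0 counts among the 140187620 counts of control A, B and C and 0 among the 149819153 of knockout A, B and C. The counts of Meg3 therefore cannot check the knockout label in these cells, since the control line lacked the RNA too. Rian had 1 count, in control replicate B, and Mirg, Dlk1 and Dio3 had 0 in all 6 libraries, where a count of 0 allows at most 3 counts per library, a limit that covers counting error only. In the overexpressor myoblasts the mean of Meg3 was 133 ± 22.9 CPM (counts per 1000000 of the library, whose total is scaled by a normalization factor; mean ± SD, n = 3 in each group here and below), that of Rian 223 ± 23.1 and that of Mirg 10.7 ± 0.444. Of the 4 cluster genes tested (Meg3, Rian, Mirg and Rtl1), Rtl1, which codes for a retrotransposon-derived protein, passed the test between knockout and control and the other 3 did not. It had 0 counts in the control libraries and 0.129, 0.255 and 0.107 CPM in knockout A, B and C (adjusted p = 0.00016, edgeR's quasi-likelihood test), and it was not tested in the fits of the 6 or the 9 myoblast libraries alone, whose filter left it out. Those levels lie near the limit of detection, and microRNA genes overlap Rtl1 on the other strand, so its value is uncertain.

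The guides were designed against the proximal regulatory region of Meg3, and their coordinates were not used here. The sequence from 250 bases before to 50 after the start of Meg3, from RefSeq (build GRCm38.p6, chr12:109540746-109541045, plus strand), is shown because it is the promoter of the targeted gene, with nothing in capitals. It is the reference sequence, not that of the clone, and whether the deletion overlaps it was not tested.
Meg3: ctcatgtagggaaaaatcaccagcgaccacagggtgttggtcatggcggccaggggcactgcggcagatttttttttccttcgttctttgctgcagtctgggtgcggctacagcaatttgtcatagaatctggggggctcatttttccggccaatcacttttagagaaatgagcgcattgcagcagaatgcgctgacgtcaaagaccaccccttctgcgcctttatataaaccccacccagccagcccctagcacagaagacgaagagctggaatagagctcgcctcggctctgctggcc
The window holds 13 CG dinucleotides, and a second RefSeq start of Meg3 lies downstream.

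The 6 libraries held between 42376830 and 53451258 counts, with normalization factors of 1.04 to 1.08. Between replicates the biological coefficient of variation came to 6.57% for the control and 4.23% for the clone, and no pair of libraries was as close as counting noise alone would make it (chi-square per degree of freedom 4.72 to 11.8). The labels do not say whether replicates A, B and C came from separate cultures, so p-values measure only the spread between these samples, which may be technical. Of 17912 genes tested, 9489 (53%) differed between knockout and control myoblasts at an adjusted p under 0.05. They divided into 4720 higher (26.4%) and 4769 lower (26.6%) in the knockout clone, and 3274 (18.3%) passed with a difference of at least 2-fold. The median log2 fold change of all genes was 0.02. Since more than 1 gene in 2 was called, a list of genes is read below against these shares, not against 0. Every log2 fold change is knockout minus control unless another pair is named, and every adjusted p is from edgeR's quasi-likelihood test. In these bulk samples, fewer cells that make an RNA and less of that RNA per cell cannot be told apart.

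Muscle structural genes were higher in the knockout clone while it was still in growth medium. The factors that drive them are the myogenic basic helix-loop-helix proteins, which bind E-boxes (CANNTG, often CAGCTG), and the MEF2 proteins. Among 22 myogenic transcription factor genes tested, 10 were higher and 3 lower, with a median of 0.30. Myog, the factor that commits myoblasts to terminal differentiation, stood at 99.4, 126 and 90.3 CPM in control A, B and C and at 1082, 1249 and 1139 CPM in knockout A, B and C. The groups did not overlap, and every knockout library was far above every control one (log2 fold change 3.46, SE 0.15, adjusted p = 6.34e-12). Mef2c, its partner in activating muscle genes, went from 0.131, 0.135 and 0.223 CPM to 26.9, 29.6 and 23.03 CPM, so it was close to the limit of detection in control cells and plainly expressed in the clone (7.35, SE 0.44). Myf6, another factor of the late stage, moved from a mean of 0.185 ± 0.0279 to 2.46 ± 0.155 CPM (3.71, SE 0.23, adjusted p = 1.8e-10).

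The factors of the earlier stage behaved otherwise. Myod1, which sets muscle identity and is on in proliferating C2C12 cells, was at 193, 216 and 217 CPM in control and 324, 317 and 313 CPM in knockout libraries, a smaller rise with no overlap (0.61, SE 0.097, adjusted p = 3.44e-05). Myf5, also a factor of proliferating myoblasts, had overlapping libraries (26.5, 23.7 and 26.4 against 25.2, 23.3 and 23.2 CPM; adjusted p = 0.685). Pax7, the factor of muscle stem cells, fell from 42.1 ± 1.82 to 18.2 ± 0.428 CPM (-1.21, SE 0.092, adjusted p = 3.33e-09). The late factors thus differed by far more than the early ones, and Pax7 differed in the other direction.

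**Figure D1:**
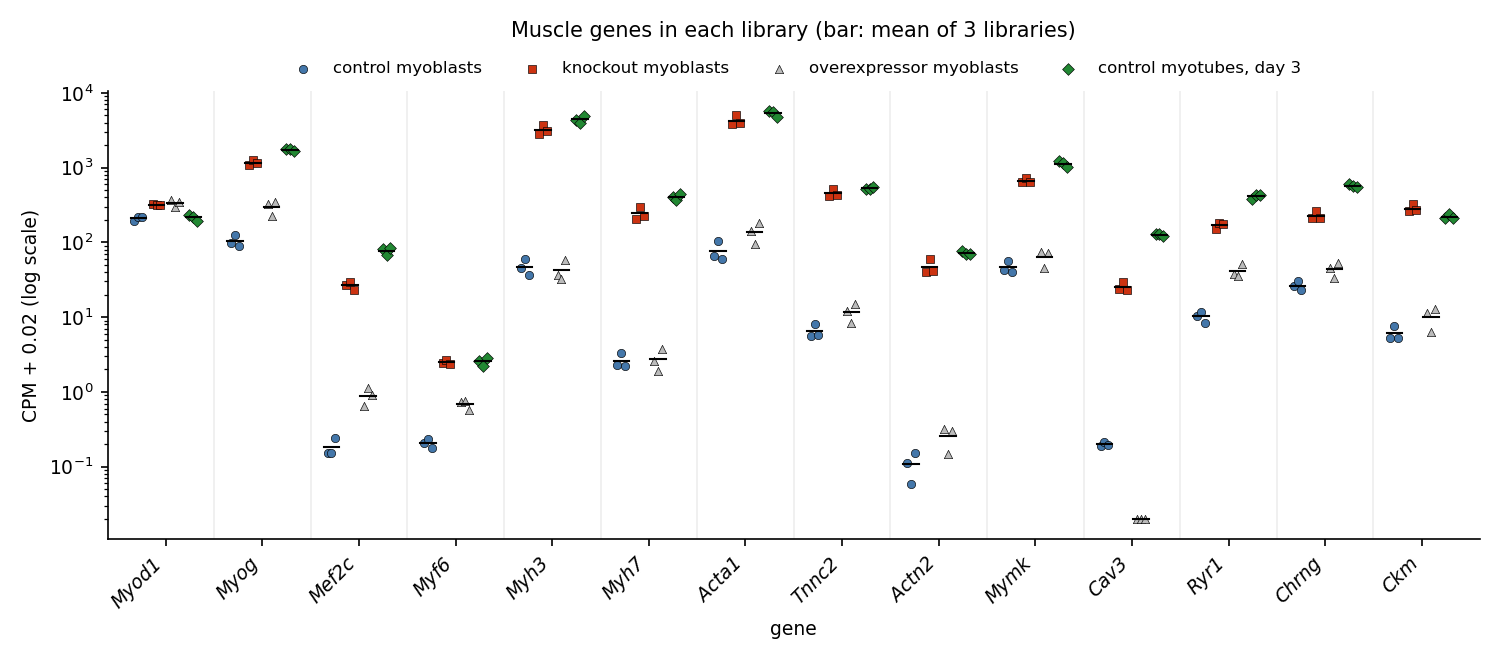
CPM of 14 muscle genes in each library on a log axis (0.02 added so that 0 can be drawn), for control myoblasts, knockout myoblasts, overexpressor myoblasts and control myotubes; each point is 1 library and each bar a mean of 3. Knockout myoblasts lie above control myoblasts for every gene shown and near control myotubes for several, such as Myh3 and Acta1, while Myod1 differs little between groups.

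The sarcomere is built of myosin thick filaments, actin thin filaments with their tropomyosin and troponin switch, and the Z-disc and titin scaffold. All 3 sets were higher in the knockout clone. Of 21 sarcomeric myosin genes tested, 18 were higher and 0 lower, 17 of them by at least 2-fold, with a median log2 fold change of 5.06; 4 of the 21 had 3 counts or fewer in every library of both groups, and 1 of those 4 is among the calls. Without those 4, and with 1 further gene that was at this floor in control set to its lower bound, the median was 5.38. Myosin heavy chain genes are similar in sequence, and reads shared among them cannot be assigned with certainty. Embryonic myosin, Myh3, had 45.1, 60.1 and 36.3 CPM in control and 2791, 3697 and 3118 CPM in knockout libraries (6.08, SE 0.24, adjusted p = 9.81e-12). Slow myosin, Myh7, rose from 2.59 ± 0.626 to 244 ± 47.3 CPM (6.55), perinatal Myh8 from 0.0768 ± 0.0544 to 28.7 ± 4.12 (8.45), and fast Myh1 from 2.702 ± 1.13 to 328 ± 68.3 (6.92). Embryonic, perinatal, slow and fast forms therefore all rose. The fast regulatory light chain gene Mylpf rose with them, from 47.1 ± 15.4 to 1968 ± 237 CPM (5.38).

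Thin filament genes followed. Of 17 actin, tropomyosin and troponin genes, 15 were higher and 1 lower (median 4.82). Skeletal actin, Acta1, had 65.9, 105 and 59.6 CPM in control and 3841, 5002 and 3918 CPM in knockout libraries, with no overlap (5.79, SE 0.28). Cardiac actin, Actc1, which embryonic skeletal muscle also makes, rose from 66.9 ± 9.54 to 2094 ± 238 CPM (4.97). The calcium sensor Tnnc2 rose from 6.49 ± 1.46 to 453 ± 58.3 CPM (6.12; Ube2c overlaps it on the other strand) and the fast troponin Tnnt3 from 13.7 ± 2.71 to 571 ± 79.4 (5.38). The 1 member that fell was Tpm3, a tropomyosin gene that also gives the short forms of non-muscle cells, from 265 ± 7.55 to 179.6 ± 3.23 CPM (-0.56, SE 0.051). Of 35 genes of the Z-disc, M-band and titin system, 32 were higher and 0 lower (median 4.61, or 4.54 with genes at the floor in control at their bound). The Z-disc cross-linker Actn2 was at 0.0936, 0.0385 and 0.134 CPM in control and at 39.5, 59.98 and 41.6 CPM in knockout libraries (9.05, SE 0.33). The giant ruler proteins Ttn and Neb rose from 14.3 ± 3.70 to 366 ± 36.5 and from 4.11 ± 1.21 to 155 ± 24.4 CPM (4.67 and 5.23). Des, the intermediate filament that links Z-discs and is already made by myoblasts, rose less, from 913 ± 51.6 to 2820.2 ± 253 CPM (1.63).

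Genes for calcium release and for the nerve contact also rose, and those for fusion and adhesion were mixed. Fusion needs the membrane proteins myomaker (Mymk) and myomixer (Mymx): Mymk had 42.5, 56.4 and 40.5 CPM in control and 636, 728 and 648 CPM in knockout libraries (3.85, SE 0.19), and Mymx rose from 5.36 ± 0.832 to 36.4 ± 3.75 CPM (2.76). In the whole fusion and adhesion list, 11 of 22 genes were higher and 7 lower. Its higher members included the membrane genes Tmem182 (1.503 ± 0.09999 to 93.4 ± 14.3 CPM, 5.96) and Cav3, the muscle caveolin (0.180 ± 0.0119 to 25.4 ± 3.37 CPM, 7.13), and the muscle cadherin Cdh15 (285 ± 15.4 to 431 ± 11.8 CPM, 0.60). The chromosome 8 window of Cdh15 had a median of 0.32. Its lower members included the adhesion genes Jam2 (92.3 ± 2.32 to 53.2 ± 1.04 CPM, -0.79) and the tetraspanin Cd9 (386 ± 4.55 to 260.3 ± 6.01 CPM, -0.57).

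Excitation-contraction coupling lets a depolarized membrane release calcium from the sarcoplasmic reticulum. Of 27 genes of that system, 23 were higher and 1 lower (median 2.65, or 2.73 with genes at the floor at their bound or left out). The release channel Ryr1 had 10.4, 11.9 and 8.29 CPM in control and 149, 182 and 174 CPM in knockout libraries (4.04, SE 0.15). Its voltage sensor Cacna1s rose from 2.15 ± 0.348 to 112 ± 15.6 CPM (5.69), the calcium pump Atp2a1 from 31.0 ± 5.26 to 532 ± 77.4 (4.10) and the calcium store protein Casq2 from 4.84 ± 2.02 to 284 ± 41.7 (5.87). Sensor, channel, pump and store thus rose together. At the nerve contact, 14 of 16 acetylcholine receptor and synapse genes were higher and 1 lower (median 1.36, or 1.04 with 1 gene at its bound). The fetal receptor subunit Chrng had 25.9, 30.2 and 23.2 CPM in control and 211, 261 and 213 CPM in knockout libraries (3.11, SE 0.15), while the subunit Chrna1 rose from 534 ± 18.96 to 1057 ± 49.5 CPM (0.99). The receptor kinase Musk rose from 26.5 ± 1.80 to 82.0 ± 5.31 CPM (1.63) and the neuregulin receptor Erbb3 from 4.41 ± 0.317 to 62.4 ± 6.42 (3.82). Agrn, the ligand that acts through Musk, was the lower member, at 89.6 ± 2.82 and 69.2 ± 3.44 CPM (-0.37).

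Promoters of these genes were read for the E-box and for the MEF2 site. The MEF2 site was taken as the 10 letters YTAWWWWTAR (Y is C or T, W is A or T, R is A or G). The RefSeq windows of 250 bases before to 50 after the start of Myog (chr1:134289754-134290053, plus strand), Chrng (chr1:87205561-87205860, plus strand), Myh8 (chr11:67276874-67277173, plus strand) and Ckm (chr7:19410844-19411143, plus strand), all in build GRCm38.p6, are shown because these 4 genes rose together and cover the regulator, synapse, sarcomere and energy roles. Capitals mark E-boxes and exact matches to this MEF2 motif, so variant sites are left unmarked.
Myog: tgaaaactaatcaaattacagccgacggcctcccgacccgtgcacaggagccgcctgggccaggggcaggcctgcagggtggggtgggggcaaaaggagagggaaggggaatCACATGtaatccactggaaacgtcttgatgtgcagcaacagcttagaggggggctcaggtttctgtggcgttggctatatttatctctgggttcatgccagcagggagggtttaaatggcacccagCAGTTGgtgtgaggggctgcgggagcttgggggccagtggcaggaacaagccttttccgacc
Chrng: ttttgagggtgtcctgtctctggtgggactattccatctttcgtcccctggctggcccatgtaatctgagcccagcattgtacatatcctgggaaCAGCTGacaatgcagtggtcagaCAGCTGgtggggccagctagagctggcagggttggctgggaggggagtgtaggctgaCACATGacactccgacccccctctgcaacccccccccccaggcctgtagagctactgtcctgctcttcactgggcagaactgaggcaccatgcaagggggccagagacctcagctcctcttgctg
Myh8: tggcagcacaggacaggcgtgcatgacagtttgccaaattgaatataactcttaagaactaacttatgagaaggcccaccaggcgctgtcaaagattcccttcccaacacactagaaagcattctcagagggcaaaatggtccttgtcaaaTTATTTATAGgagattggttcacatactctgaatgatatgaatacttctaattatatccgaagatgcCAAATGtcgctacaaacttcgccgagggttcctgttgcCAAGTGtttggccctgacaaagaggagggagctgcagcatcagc
Ckm: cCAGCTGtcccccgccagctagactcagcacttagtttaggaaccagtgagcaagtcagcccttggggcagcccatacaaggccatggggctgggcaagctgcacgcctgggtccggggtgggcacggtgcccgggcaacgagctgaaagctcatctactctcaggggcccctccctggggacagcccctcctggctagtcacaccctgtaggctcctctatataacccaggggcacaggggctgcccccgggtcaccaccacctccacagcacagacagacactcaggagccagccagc
Myog holds 2 CANNTG matches and no exact match to the MEF2 motif. It does hold ctatatttat, which departs from that motif in its last letter only. Chrng holds 3 CANNTG matches, of which 2 read CAGCTG. Myh8 holds 2 and 1 MEF2 site, and Ckm holds 1, which reads CAGCTG. Both strands were searched, and CAGCTG is one form of CANNTG, so the counts overlap. Of the 118 genes found of the 5 contractile, calcium and synapse lists, 86 had a RefSeq window, and 33 of these (38.4%) held CAGCTG, 77 (89.5%) held CANNTG and 15 (17.4%) held a MEF2 site. Among all 27025 genes with such a window the shares were 18.3%, 75% and 3.70%, and among the 11508 tested genes with one they were 18.8%, 68.3% and 2.47%. Among 34 mitosis and spindle genes, which did not rise, they were 14.7%, 64.7% and 5.88%. A gene was counted when the window of any of its listed starts held the site. These are counts of letters in a window, and binding was not measured.

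Compared with control myotubes, the vector line on day 3 of differentiation, knockout myoblasts still stood lower for most sarcomeric myosins. That reference differs in stage and in line together, so each value is only a place on a scale. Between knockout myoblasts and control myotubes 10953 genes (61.1%) differed. Of the 21 myosin genes, 0 were higher and 18 lower in the knockout myoblasts (median -1.16). Of 17 actin, tropomyosin and troponin genes, 10 were lower and 3 higher. Z-disc, M-band and titin genes were lower for 22 of 35 and higher for 4. Calcium handling genes were lower for 16 of 27 and higher for 8. Receptor and synapse genes were lower for 7 of 16 and higher for 5. The single genes given next are therefore not typical of every list. For Myh3 the control myotube mean was 4410.1 ± 497 CPM against 3202 ± 459 in knockout myoblasts (-0.46, adjusted p = 0.0467). Acta1 (5337 ± 489.8 CPM in control myotubes; -0.33, adjusted p = 0.226), Tnnc2 (527 ± 22.0; -0.22, adjusted p = 0.257), Actc1 (1991 ± 98.0; 0.073, adjusted p = 0.651) and Ckm (221 ± 17.6; 0.36, adjusted p = 0.127) did not pass the test against control myotubes, which does not show that the levels were equal. Myog was at 1732 ± 59.6 CPM in control myotubes, above the clone (-0.58, adjusted p = 0.00139).

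**Figure D2:**
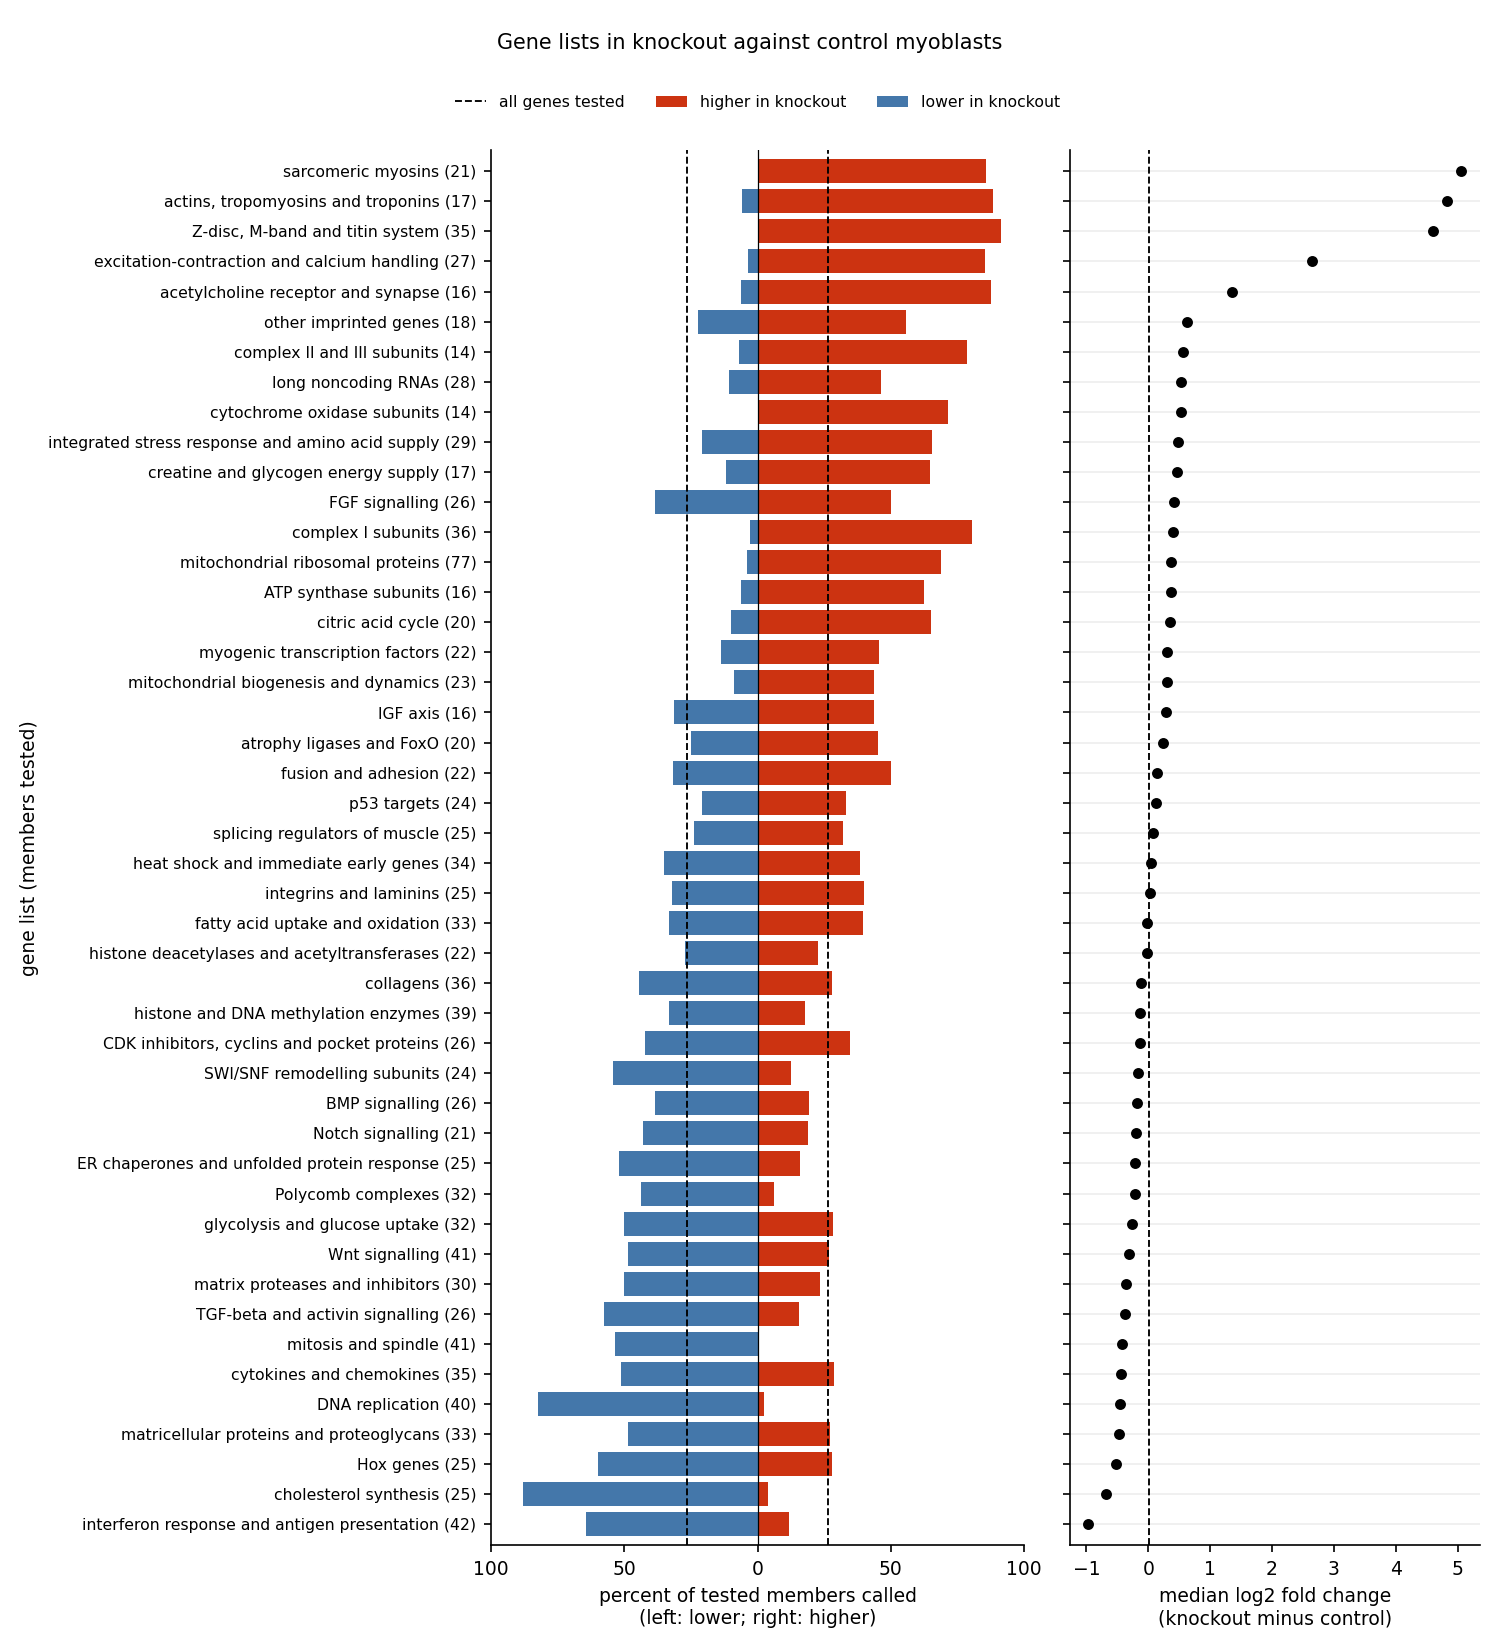
Gene lists in knockout against control myoblasts: on the left, the percent of tested members called higher (red, to the right) or lower (blue, to the left), with dashed lines at the shares of all genes tested (26.4% and 26.6%); on the right, the median log2 fold change, with a dashed line at the median of all genes (0.02). The 5 contractile, calcium and synapse lists are at the top, and interferon response, cholesterol synthesis and DNA replication are among those at the bottom.

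Energy supply was the next group that set the clone apart, in several layers. Muscle buffers ATP with creatine kinase and stored glycogen: 11 of 17 genes were higher and 2 lower (1 lower without control replicate B). The muscle creatine kinase Ckm had 5.19, 7.65 and 5.28 CPM in control and 260.3, 321 and 267 CPM in knockout libraries (5.55, SE 0.24), and the glycogen phosphorylase Pygm rose from 2.26 ± 0.324 to 76.7 ± 9.17 CPM (5.08). Glycolysis and glucose uptake leaned the other way, with 9 of 32 genes higher and 16 lower (median -0.26). Higher ones included the muscle phosphoglycerate mutase Pgam2 (0.353 ± 0.122 to 20.1 ± 4.85 CPM, 5.85), the phosphofructokinase Pfkm (101 ± 5.20 to 165 ± 17.9, 0.71), the hexokinase Hk2 (40.9 ± 0.993 to 79.4 ± 1.90, 0.96) and the insulin-responsive glucose transporter Slc2a4 (1.90 ± 0.104 to 3.85 ± 0.115, 1.02). The muscle enolase Eno3 did not pass (558 ± 24.4 and 641 ± 51.4 CPM; adjusted p = 0.106). The lactate exporter Slc16a3 fell most, from 31.2, 33.5 and 34.0 CPM in control to 0.602, 0.437 and 0.391 CPM in knockout libraries (-6.12, SE 0.21).

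Nuclear genes of the respiratory chain rose by small amounts in most members. Electrons pass from complex I and complex II to complex III and to cytochrome oxidase, and ATP synthase uses the proton gradient they build. Of 36 complex I subunits, 29 were higher and 1 lower (median 0.40), none by 2-fold. The other complexes were similar: 11 of 14 higher and 1 lower for complexes II and III (median 0.56), 10 of 14 higher and 0 lower for cytochrome oxidase (0.53), and 10 of 16 higher and 1 lower for ATP synthase (0.36). These shares stand well above the 26.4% of all genes that were higher. The core subunit Ndufs1 had 113, 112 and 117 CPM in control and 189, 192 and 191 CPM in knockout libraries (0.74, SE 0.096), the complex III subunit Uqcr11 rose from 57.5 ± 0.985 to 112 ± 1.316 CPM (0.96), and the ATP synthase catalytic subunit Atp5b from 1807 ± 68.1 to 2756 ± 21.3 (0.61). Atp5d rose from 268 ± 4.39 to 490.2 ± 10.1 CPM (0.87). Lower members included Ndufb7 (139 ± 2.86 to 108 ± 1.89 CPM, -0.36) and Sdha of complex II (306 ± 14.2 to 262 ± 3.35, -0.22). The chromosome 8 window of Ndufb7 was low as a whole (median -0.78, see the chromosome medians further on). The fall of Sdha was smaller than the median of its own window (-0.29). Uqcr11 and Atp5d lie in a chromosome 10 window with a median of 0.30, and Atp5b in one with a median of 0.26.

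Of the subunit isoforms with restricted expression, some moved by more. The muscle isoform Cox7a1 did not pass (0.448 ± 0.154 and 0.722 ± 0.199 CPM; adjusted p = 0.12), while the muscle isoform Cox6a2 rose from 0.169, 0.404 and 0.156 CPM in control to 11.9, 14.0 and 10.7 CPM in knockout libraries (5.62, SE 0.26; Itgad overlaps it on the other strand). Cox7b2 was at 0.0749, 0.0385 and 0 CPM in control and 11.2, 10.9 and 10.5 CPM in knockout libraries (6 counts against 1707; higher 271-fold, 95% exact counting interval 124 to 740.4), and at only 0.0929 CPM in control myotubes, and the differentiated vector line thus had little of it. The coactivator Ppargc1a (PGC-1alpha), which drives mitochondrial genes, rose from 0.449, 0.173 and 0.290 to 7.12, 7.47 and 6.66 CPM (4.52, SE 0.38), above its control myotube mean of 1.34 (2.39, adjusted p = 4.19e-06). The mitochondrial DNA packaging factor Tfam rose from 35.6 ± 1.82 to 59.4 ± 1.43 CPM (0.74; its chromosome 10 window had a median of 0.36). Of 77 mitochondrial ribosomal protein genes, 53 were higher and 3 lower (median 0.36); the lower count was 1 without control replicate C or knockout replicate B and 7 when only the 6 libraries were fitted. Mrpl47 had the largest rise, from 14.8 ± 1.22 to 31.7 ± 0.0229 CPM (1.10; Ndufb5 and Actl6a overlap it on the other strand). In the citric acid cycle 13 of 20 genes were higher and 2 lower (4 lower with only the 6 libraries). Citrate synthase, Cs, was at 472 ± 26.9 and 629.7 ± 7.94 CPM (0.42), in a chromosome 10 window with a median of 0.26. Genes of fatty acid uptake and oxidation were split, 13 higher and 11 lower of 33. The fatty acid transporter Cd36 rose from 0.183 ± 0.0795 to 17.1 ± 1.86 CPM (6.55), whereas the carnitine palmitoyltransferase Cpt1c fell from 28.7 ± 1.71 to 5.75 ± 0.379 (-2.32).

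Cholesterol synthesis was lower almost throughout. Cells make sterols from acetyl-CoA under the control of SREBP2. Of 25 genes of the pathway and its regulators, 22 were lower and 1 higher, with a median of -0.68. The synthase Hmgcs1 had 311, 316 and 329 CPM in control and 136, 154 and 145 CPM in knockout libraries (-1.13, SE 0.16), and its groups did not overlap. Nsdhl fell from 130.2 ± 6.55 to 50.9 ± 3.06 CPM (-1.35), in a window of the X chromosome with a median of -0.44. The 1 higher member was Insig1, which holds SREBP in the endoplasmic reticulum, at 100.1 ± 2.68 and 119.8 ± 6.48 CPM (0.26).

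Cell cycle genes were lower in the clone, by less than 2-fold in most cases. Of 40 DNA replication genes, 33 were lower and 1 higher (median -0.46; 2 higher when only the 6 or the 9 myoblast libraries were fitted). The helicase subunit Mcm2 had 191, 211 and 225 CPM in control and 139, 134 and 143 CPM in knockout libraries (-0.59, SE 0.094). The ribonucleotide reductase subunit Rrm2 fell from 389.5 ± 36.6 to 276 ± 13.3 CPM (-0.50) and the polymerase subunit Pola1 from 30.9 ± 4.31 to 13.3 ± 1.09 (-1.22). The sliding clamp Pcna fell from 87.2 ± 2.97 to 48.3 ± 1.02 (-0.85; window median -0.39) and the origin recognition subunit Orc6 from 70.8 ± 2.13 to 35.6 ± 1.97 (-0.99; window median -0.78). Tyms, the thymidylate synthase, was the higher member (71.1 ± 2.17 to 92.1 ± 1.31 CPM, 0.37; window median 0.38).

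Mitotic genes were lower or not called. Of 41 mitosis and spindle genes, 22 were lower and 0 higher (median -0.42), and 35 were lower when only the 6 libraries were fitted. The checkpoint kinase Bub1b had 167, 168 and 179 CPM in control and 81.8, 82.0 and 86.8 CPM in knockout libraries (-1.03, SE 0.10), and the spindle kinesin Kif20a fell from 275 ± 11.8 to 136 ± 6.13 CPM (-1.02). Cyclin B1, Ccnb1, fell from 76.3 ± 4.90 to 52.0 ± 2.84 (-0.55). Its kinase Cdk1 had overlapping libraries (173, 178 and 179.8 against 189, 169.9 and 194 CPM; adjusted p = 0.642), and Top2a did not pass either (443 ± 12.5 against 412 ± 17.6; adjusted p = 0.64). The log2 fold change of Cdk1 was 0.060, in a chromosome 10 window with a median of 0.36. Mki67, the Ki-67 proliferation marker, was at 228, 199.6 and 204 CPM in control and 146, 142 and 138 CPM in knockout libraries. The groups of Mki67 did not overlap, but the test across all 18 libraries gave an adjusted p of 0.0791, against 0.0188 with DESeq2's Wald test. Against control myotubes, which have left the cycle, knockout myoblasts were higher for all 41 tested mitosis genes (median 3.11) and for 38 of 40 replication genes (median 2.24). In the same libraries, muscle structural genes thus stood far above control myoblasts and cell cycle genes far above control myotubes, and bulk RNA cannot assign both to the same or to different cells.

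The brakes of the cycle differed in size and direction. Cdkn1a (p21), the inhibitor that accompanies cell cycle exit in muscle, had 225, 259.8 and 227 CPM in control and 1492, 1688 and 1513 CPM in knockout libraries (2.72, SE 0.11, adjusted p = 4.38e-13), against a control myotube mean of 2362 ± 172. The pocket protein gene Rb1 rose from 43.0 ± 1.42 to 130.5 ± 4.47 CPM (1.60; Lpar6 and Rcbtb2 overlap it on the other strand). Cyclin D1, Ccnd1, fell from 256 ± 17.3 to 139 ± 10.8 CPM (-0.89), and the S-phase activator E2f1 from 62.2 ± 3.35 to 27.0 ± 1.53 (-1.21). Cdkn1b (p27) was at 86.3 ± 2.01 and 98.9 ± 2.57 CPM and did not pass (adjusted p = 0.0877). The imprinted inhibitor Cdkn1c (p57) was lower, at 6.95, 7.09 and 7.22 CPM in control and 1.87, 2.73 and 2.49 CPM in knockout libraries (-1.58, adjusted p = 0.0329), a call that was lost when any 1 of the 6 libraries was left out (adjusted p of 0.058 to 0.098). Of 24 p53 target genes, 54.2% were called, near the 53% of all genes, with values from -7.33 to 2.31 (median 0.12). Cdkn1a, given above, was not in that list, so its value is outside this range. Of the 24, 8 were higher and 5 lower (9 lower with only the 6 libraries). Among these, Eda2r (16.7 ± 1.24 to 68.4 ± 6.64 CPM, 2.03), Pmaip1 (2.89 ± 0.546 to 14.4 ± 2.96, 2.31) and Mdm2 (60.8 ± 0.255 to 101 ± 0.960, 0.73; window median 0.34) rose, while Trp53 itself did not pass (196 ± 12.3 and 211 ± 3.06 CPM; adjusted p = 0.313).

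**Figure D3:**
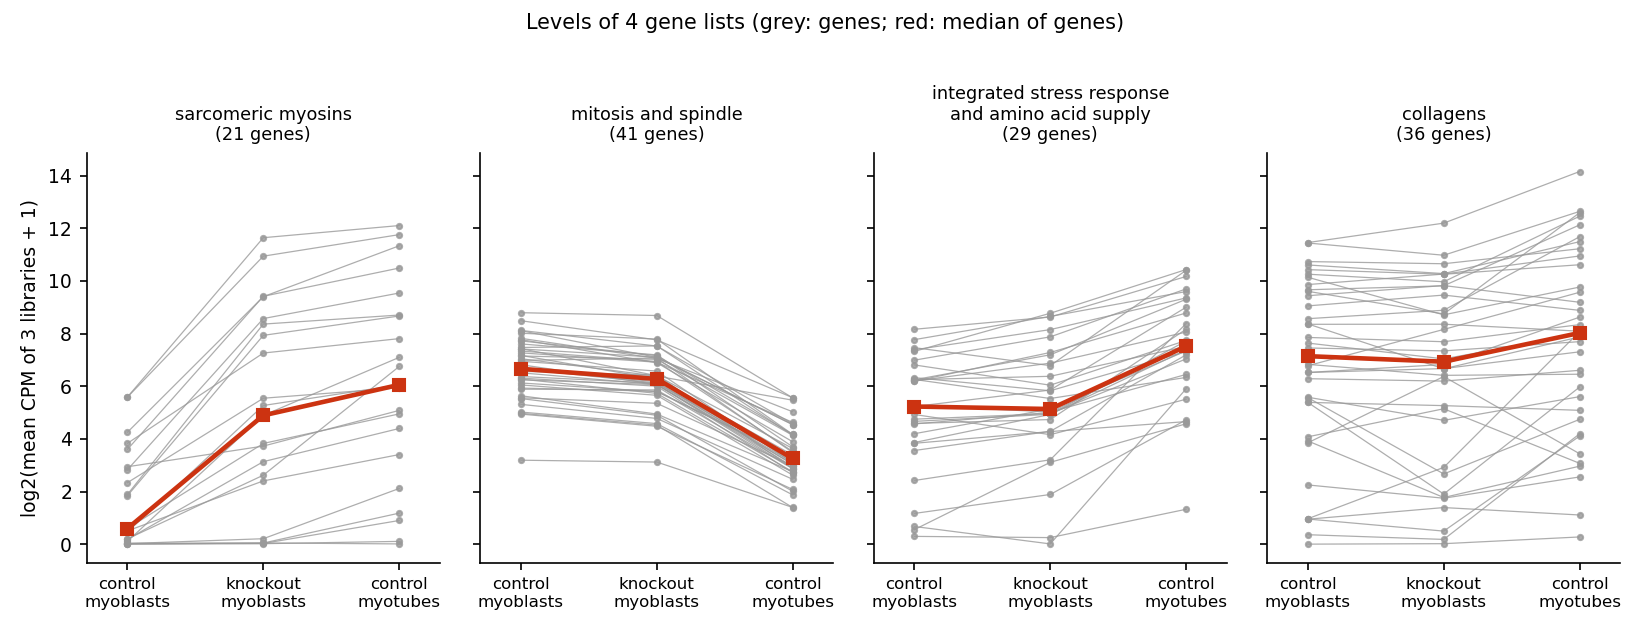
Levels of the tested members of 4 gene lists in control myoblasts, knockout myoblasts and control myotubes, as log2 of the mean CPM of 3 libraries plus 1; each grey line is a gene and the red line the median of the genes. For sarcomeric myosins the knockout median lies near the myotube end, for mitosis and spindle genes it lies near the control myoblast end, and for stress response genes and collagens it lies near the control myoblast median and below that of myotubes. The median of levels for stress response genes hardly moves between the myoblast groups, although the median of their differences is 0.47.

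Chromatin regulators were mostly lower or not called. Polycomb complexes silence developmental genes, and their loss from muscle promoters accompanies differentiation. Of 32 Polycomb genes, 14 were lower and 2 higher (median -0.22; the higher count was 1 without control replicate B and 5 with only the 6 libraries). The methyltransferase Ezh2 had 64.5, 66.1 and 70.1 CPM in control and 52.9, 49.8 and 54.4 CPM in knockout libraries; its groups did not overlap, but its adjusted p was 0.052 (0.0203 with DESeq2's Wald test). Its relative Ezh1 fell from 64.2 ± 2.46 to 40.2 ± 1.39 CPM (-0.67, SE 0.074), and the core subunit Eed rose from 22.3 ± 1.47 to 32.6 ± 0.812 (0.55). The largest falls were in the chromobox genes Cbx6 (335 ± 18.9 to 132 ± 1.35 CPM, -1.35) and Cbx7 (26.8 ± 0.886 to 11.3 ± 0.523, -1.25), both on a stretch of chromosome 15 whose expressed genes had a median of -0.49. Npcd overlaps Cbx6 on the same strand and Apobec3 overlaps Cbx7 on the other strand, so both values are uncertain.

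Of 24 SWI/SNF remodelling genes, 3 were higher and 13 lower. Smarcd3, the BAF60c subunit that works with Myod1, rose from 92.9 ± 2.83 to 212 ± 4.11 CPM (1.19; window median 0.34), while the ATPase Smarca2 fell from 32.8 ± 1.41 to 8.70 ± 0.814 (-1.91). Among 22 deacetylase and acetyltransferase genes, 5 were higher and 6 lower, shares near those of all genes. Hdac11 rose from 12.03 ± 0.979 to 32.2 ± 1.46 CPM (1.42) and Hdac9 from 0.436 ± 0.122 to 2.80 ± 0.242 (2.67). Hdac7 and the acetyltransferase Ep300, both on chromosome 15, fell (-0.97 and -0.73; window medians -0.42 and -0.49). Of 39 histone and DNA methylation enzyme genes, 7 were higher and 13 lower, none of them by 2-fold. The share called was 51.3%, near the 53% of all genes. The maintenance DNA methyltransferase Dnmt1 fell from 267 ± 19.1 to 163 ± 5.82 CPM (-0.71) and the H3K9 methyltransferase Ehmt2 (G9a) from 267 ± 6.44 to 162 ± 1.02 (-0.72). Dot1l rose from 63.3 ± 3.24 to 112 ± 3.34 CPM (0.82), in a chromosome 10 window with a median of 0.30.

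Hox genes, which record position along the body axis and are Polycomb targets, were split by cluster. Of 25 tested, 15 were lower and 7 higher (4 higher with a stricter filter on low counts), with a median of -0.52. All 15 lower genes belong to the HoxA and HoxC clusters, and 5 of the 7 higher ones are HoxB genes. Lower ones were Hoxa3 (5.03 ± 0.0103 to 2.26 ± 0.0954 CPM, -1.16; antisense genes overlap it) and Hoxc5 (5.56 ± 0.623 to 2.40 ± 0.350, -1.21; its chromosome 15 window had a median of -0.42). HoxB genes were near 0 in the control and low but present in the clone. Chosen after their values were seen, Hoxb3 had 0, 0.0385 and 0.0223 CPM in control and 3.68, 3.73 and 3.13 CPM in knockout libraries (3 counts against 552 in all; higher 175-fold, 95% exact counting interval 59.7 to 854), and Hoxb6 had 0.169, 0.0577 and 0.0445 and 3.29, 3.39 and 3.04 CPM (5.09, SE 0.38).

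Imprinted genes outside the edited cluster also differed. Many belong to a set that is active in fetal tissue and falls after birth. Of 18 tested, 10 were higher and 4 lower (median 0.62); the lower count was 2 without control replicate A or B or knockout replicate A or B. H19, a noncoding RNA that hosts miR-675 and marks myogenic differentiation, had 2859.9, 3063 and 2983 CPM in control and 14160.3, 14600.5 and 14493 CPM in knockout libraries (2.28, SE 0.087, adjusted p = 2.83e-13). The knockout level was also above that of control myotubes (3598 ± 117 CPM; 2.002). Igf2, its reciprocally imprinted neighbour, stayed low at 4.72, 4.90 and 3.94 and 6.24, 5.57 and 5.69 CPM (0.36, adjusted p = 0.0356), a call lost without control replicate A or C or knockout replicate A, B or C (adjusted p of 0.050 to 0.153). The zinc-finger genes Peg3 and Zim1, neighbours on chromosome 7, rose from 224 ± 4.46 to 412 ± 14.99 CPM (0.88) and from 15.96 ± 3.11 to 57.6 ± 1.93 (1.85). Mest went the other way, from 59.5, 65.7 and 54.2 CPM in control to 0.258, 0.291 and 0.214 CPM in knockout libraries (-7.87, SE 0.22), and Peg13 fell from 21.0 ± 0.429 to 4.15 ± 0.323 (-2.34; window median -0.31). H19 and Mest thus moved in opposite directions, each with no overlap between groups.

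The extracellular matrix was remodelled without a common direction. Of 36 collagen genes, 10 were higher and 16 lower, and of 33 genes for matricellular proteins and proteoglycans 9 were higher and 16 lower. The fibrillar collagen Col1a1 had 775, 805 and 757 CPM in control and 370.3, 571 and 345 CPM in knockout libraries, of which replicate B was the highest (-0.86, SE 0.17). Col3a1 rose from 2817 ± 74.3 to 4701 ± 216 CPM (0.74, with a window median of 0.30) and Col11a1 from 13.4 ± 0.883 to 81.7 ± 4.45 (2.60), while Col8a2 fell from 46.4 ± 0.857 to 5.35 ± 0.746 (-3.12). Of the small proteoglycans, biglycan (Bgn) fell from 3204 ± 97.7 to 541 ± 27.4 CPM (-2.57; X chromosome window median -0.44) and fibromodulin (Fmod) rose from 63.4 ± 3.35 to 339 ± 39.6 (2.42). Fibulin-2 (Fbln2) fell from 541 ± 20.4 to 95.5 ± 5.40 CPM (-2.50), and periostin (Postn) rose from 28.7, 25.2 and 20.5 to 52.2, 77.2 and 47.9 (1.25). The YAP target Ccn2 (CTGF) rose from 36.4 ± 6.11 to 246 ± 19.4 CPM (2.76; window median 0.31).

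Enzymes and receptors of the matrix were likewise mixed. Of 30 proteases and inhibitors, 7 were higher and 15 lower. The gelatinase Mmp2 had 445, 474 and 440.4 CPM in control and 60.6, 62.0 and 60.9 CPM in knockout libraries (-2.89, SE 0.092), a fall larger than the median of its chromosome 8 window (-0.50). The cross-linking enzyme Loxl4 fell from 40.8 ± 1.20 to 2.74 ± 0.155 CPM (-3.90), and the protease Adam19, of the meltrin family, rose from 75.6 ± 3.03 to 198 ± 12.2 (1.39). Of 25 integrin and laminin genes, 10 were higher and 8 lower (median 0.022). Laminin chains of the muscle basement membrane were among the higher: Lama2 from 21.6 ± 1.41 to 112 ± 5.71 CPM (2.37) and Lama4 from 1.24 ± 0.118 to 35.4 ± 1.25 (4.84), both on chromosome 10 (window medians 0.31 and 0.34). The laminin chain Lamb3 fell from 25.3 ± 1.317 to 12.2 ± 0.298 CPM (-1.06). The muscle laminin receptor Itga7 rose from 312 ± 4.47 to 657 ± 62.5 CPM (1.07), and Itga3 fell from 349.9 ± 13.1 to 117 ± 4.97 (-1.58).

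Growth factor pathways were described from ligands and carriers to receptors. In the IGF axis, 7 of 16 genes were higher and 5 lower. The binding protein Igfbp5, which muscle cells secrete as they differentiate, had 729, 751 and 727 CPM in control and 3703, 3934 and 4061 CPM in knockout libraries (2.41, SE 0.069). Igfbp3 went from 52.9, 55.1 and 53.04 CPM to 0.0215, 0 and 0 CPM, that is from 8076 counts to 1 in all (lower 8467-fold, 95% exact counting interval 1519 to 334488; such intervals cover counting error only). Igfbp6 fell from 141 ± 3.27 to 39.2 ± 3.96 CPM (-1.84; window median -0.42). Igfbp5 thus rose while Igfbp3 and Igfbp6 fell. The receptor Igf1r rose from 83.1 ± 4.17 to 138 ± 6.20 CPM (0.73), and the RNA-binding protein Igf2bp2 from 24.3 ± 1.29 to 86.7 ± 1.93 (1.84).

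TGF-beta and activin signalling, which restrains muscle differentiation, leaned lower, with 15 of 26 genes lower and 4 higher (7 higher when the 9 myoblast libraries were fitted). The latency proteins that store the ligand fell: Ltbp2 from 393, 356 and 392 CPM in control to 20.9, 20.5 and 20 CPM in knockout libraries (-4.21, SE 0.12), and Ltbp1 from 385 ± 24.6 to 119 ± 4.72 (-1.69). The ligand Tgfb1 fell from 167 ± 3.42 to 116 ± 4.13 CPM (-0.53). Follistatin (Fst), which blocks activin and myostatin, rose from 17.1 ± 0.898 to 95.5 ± 8.08 CPM (2.48), close to its control myotube mean of 116. In BMP signalling, 5 of 26 genes were higher and 10 lower. The antagonist Nog rose from 1.57 ± 0.0880 to 3.87 ± 0.344 CPM (1.298), and the effectors Smad1 (56.3 ± 2.62 to 28.1 ± 1.40, -1.001; window median -0.78) and Smad9 (9.62 ± 0.670 to 4.34 ± 0.567, -1.15) fell.

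In Wnt signalling 11 of 41 genes were higher and 20 lower. The ligand Wnt10b fell from 29.0, 24.8 and 26.3 to 1.27, 0.619 and 1.37 CPM (-4.62, SE 0.20; window median -0.42) and the receptor Lgr6 from 13.7 ± 0.919 to 2.33 ± 0.403 (-2.56), the secreted antagonist Sfrp2 fell from 225 ± 11.7 to 152 ± 15.9 (-0.57), and the receptor Fzd5 rose from 17.2 ± 1.93 to 34.0 ± 1.78 (0.98). In Notch signalling, which keeps muscle precursors undifferentiated, 4 of 21 were higher and 9 lower. The receptor Notch2 fell from 329 ± 14.0 to 183 ± 8.89 CPM (-0.85) and its glycosyltransferase Lfng from 68.0 ± 2.05 to 16.7 ± 2.74 (-2.03; window median -0.37), while the target repressors Hey1 (11.4 ± 0.690 to 53.6 ± 3.41, 2.24) and Heyl (23.1 ± 2.84 to 39.5 ± 5.32, 0.77) rose. Hes6, which counteracts Notch output and promotes myogenesis, rose from 75.5 ± 5.93 to 184 ± 6.28 CPM (1.29). The receptor and these targets differed in direction, while Hey2, a relative of Hey1, was among the lower genes (named after its value was seen).

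FGF signalling keeps myoblasts dividing, and its members were divided: 13 of 26 higher and 10 lower. The ligand Fgf9 had 0, 0.0769 and 0.0445 CPM in control and 14.3, 12.9 and 14.3 CPM in knockout libraries (6 counts against 2173; higher 345-fold, 95% exact counting interval 158 to 942). The myoblast receptor Fgfr4 went the other way, from 40.1, 41.9 and 36.3 to 0.194, 0.200 and 0.391 CPM (-7.20, SE 0.73), and Fgfr2 from 7.21, 8.11 and 7.93 to 0.667, 0.437 and 0.320 (-4.04, SE 0.37). Fgfr1 fell less, from 205 ± 2.48 to 161 ± 5.29 CPM (-0.35). The feedback inhibitor Spry1 rose from 2.05 ± 0.165 to 27.7 ± 2.94 CPM (3.76).

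Interferon response and antigen presentation genes were lower. Of 42 tested, 27 were lower and 5 higher, 19 of the lower by at least 2-fold, with a median of -0.97, or -0.91 with genes at the floor in 1 group at their bound. The higher count was 2 without control replicate A or C and 3 without knockout replicate A or B. Tetherin, Bst2, fell from 8.52 ± 0.508 to 2.19 ± 0.252 CPM (-1.95), and the nonclassical class I gene H2-T23 had 22.0, 21.9 and 20.1 CPM in control and 5.72, 5.39 and 6.30 CPM in knockout libraries (-1.88, SE 0.10). The class I light chain B2m fell from 224 ± 3.08 to 187 ± 3.74 (-0.26), a fall smaller than the median of its window (-0.39). The immunoproteasome subunit Psmb10 rose from 10.5 ± 0.422 to 16.9 ± 1.08 CPM (0.68, with a window median of 0.28). Among 35 cytokine and chemokine genes, 10 were higher and 18 lower. The chemokine Cxcl12 fell from 203, 203 and 213 to 49.8, 41.3 and 42.3 CPM (-2.22, SE 0.12), while Ccl2 rose from 13.9 ± 3.04 to 31.1 ± 2.85 (1.16) and Il6, at low counts, from 0.432 ± 0.0517 to 3.41 ± 0.334 (2.97; window median 0.38).

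The integrated stress response, in which Atf4 turns on amino acid genes when translation is slowed, was higher in part. Of 29 genes, 19 were higher and 6 lower (median 0.47). Atf4 itself had 285, 285 and 288 CPM in control and 389, 399 and 398 CPM in knockout libraries (0.47, SE 0.058), a rise in a window of chromosome 15 with a median of -0.49. Its targets Asns, the asparagine synthetase (74.9 ± 4.64 to 146 ± 5.86 CPM, 0.96), Ddit3, also called CHOP (10.8 ± 1.21 to 18.5 ± 1.13, 0.78, with a window median of 0.26), and the hormone Fgf21 (1.24 ± 0.155 to 13.1 ± 2.88, 3.41) rose, and so did Atf3 (0.466 ± 0.121 to 7.63 ± 1.11, 4.03) and the transporter Slc7a5 (159 ± 9.23 to 437 ± 7.79, 1.45; window median 0.32). The transporter Slc1a5 fell from 29.4 ± 1.48 to 16.9 ± 0.729 CPM (-0.80). All 29 genes were lower in knockout myoblasts than in control myotubes (median -1.83), so this group stood nearer the myoblast end. Chaperones of the endoplasmic reticulum did not rise as a group (4 of 25 higher, 13 lower; 7 higher with only the 6 libraries): Hspa5 (BiP) had overlapping libraries (adjusted p = 0.586), Calr fell from 1829.7 ± 73.9 to 894 ± 26.3 CPM (-1.03; window median -0.78), and Xbp1 rose from 151 ± 3.88 to 210.2 ± 0.807 (0.48).

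Genes that were near 0 in one line and clearly present in the other form a further group. A gene was counted here when all 3 libraries of one side had 3 counts or fewer and the other side had a mean of at least 5 CPM. In the knockout clone 18 genes were at this floor (17 to 21 when 1 library was left out): Bcl6b, Card10, Cers4, Cln3, Ddit4l, Igfbp3, Megf6, Mgl2, Mmp16, Nphp4, Parp11, Rftn1, Ripk3, Ror2, Scara3, Slc24a3, St8sia2 and Zfp422. In the control only 3 genes were at the floor, namely Upk1b, Psg28 and Mageb4 (6 without control replicate A, 5 without control replicate B). The polysialyltransferase St8sia2, which modifies the adhesion molecule NCAM, had 23.5, 26.2 and 23.7 CPM in control and 0 counts in every knockout library (at least 426-fold lower, counting the knockout at 3 counts per library), and it was also at 0 in the overexpressor clone. The ciliary gene Nphp4 had 12.4, 13.1 and 13.3 CPM in control and 0 in knockout libraries (at least 225-fold lower), with 3.82 CPM in the overexpressor. Parp11, an ADP-ribosyltransferase, had 11.98, 13.4 and 12.7 CPM in control and 0 in knockout (at least 221-fold lower), with 6.80 CPM in the overexpressor. Of the 18, Nphp4, Parp11, Card10, Cln3, Scara3, Ror2 and St8sia2 thus had not 1 count in 149819153, and Ror2 and St8sia2 were at 0 in both edited clones. Bcl6b, Cers4, Mgl2 and Ripk3 were near 0 in the overexpressor as well (means of 0.0277 to 0.0426 CPM). Card10 and Scara3 were low there (0.194 and 0.189). Cln3, Ddit4l, Igfbp3, Rftn1 and Slc24a3 kept means of 1.96 to 8.51 CPM in the overexpressor, and Mmp16 0.433. The losses were thus in part shared by both edited clones. Megf6, a secreted protein with EGF repeats, kept 4 counts against 4902 (lower 1285-fold, 95% exact counting interval 502 to 4718) and was near 0 in the overexpressor too (0.00770 CPM). The protease Mmp16 kept 8 counts against 1006 (lower 132-fold, 95% exact counting interval 66.7 to 306). Zfp422, a zinc-finger gene, kept 2 counts against 1579 (lower 828-fold, 95% exact counting interval 229 to 6841), while the overexpressor mean was 10.7 CPM and the control mean 10.5. Cln3 overlaps Apobr on the other strand, so its counts are uncertain.

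**Figure D4:**
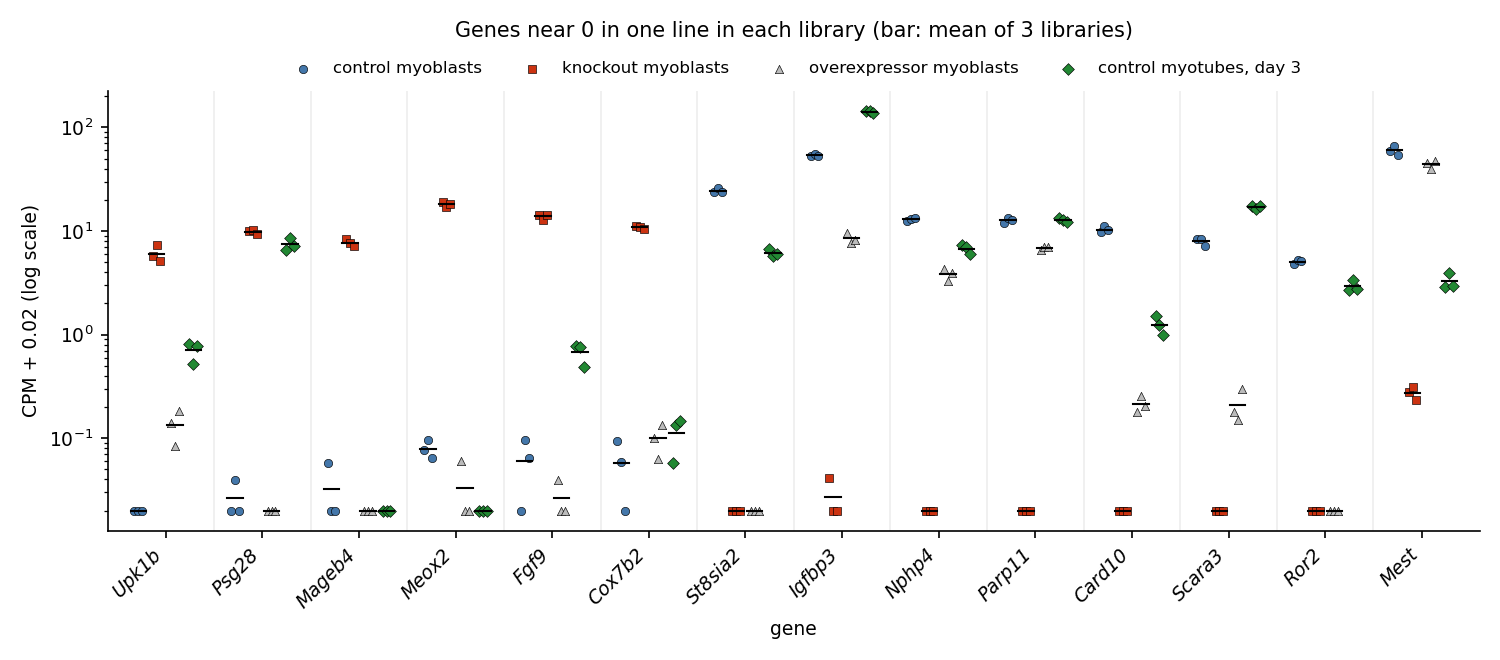
CPM of 14 genes that are at or near 0 in one line, in each library on a log axis (0.02 added so that 0 can be drawn), for control myoblasts, knockout myoblasts, overexpressor myoblasts and control myotubes; each point is 1 library and each bar a mean of 3. Upk1b to Cox7b2 are at the bottom in control and present in knockout myoblasts, and St8sia2 to Mest the reverse.

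Of the genes gained by the clone, Upk1b, a tetraspanin of the bladder lining, had 0 counts in control and 5.74, 7.28 and 5.07 CPM in knockout libraries (at least 100.2-fold higher, counting control at 3 counts per library). Psg28, of the pregnancy-specific glycoprotein family, had 10.03, 10.1 and 9.40 CPM in knockout libraries and 1 count in all in control (higher 1479-fold, 95% exact counting interval 265 to 58466), and it was also present in control myotubes (7.46 ± 1.06). Mageb4, of the MAGE family on the X chromosome, had 8.28, 7.68 and 7.14 CPM and 2 counts in all in control (higher 576-fold, 95% exact counting interval 159 to 4762). The last 2 belong to families of similar genes, so their counts are uncertain. Meox2, just outside this count, a homeobox gene of the limb muscle precursors, had 0.0562, 0.0769 and 0.0445 CPM in control and 18.8, 16.9 and 18.3 CPM in knockout libraries (9 counts against 2835; higher 300.4-fold, 95% exact counting interval 158 to 658), against 0.0133 CPM in the overexpressor and 0 counts in control myotubes. Among the largest gains, the small muscle protein gene Smpx rose from 0.216 ± 0.0601 to 37.4 ± 6.25 CPM (7.44), and Dhrs7c, an enzyme of the sarcoplasmic reticulum, from 0.0776 ± 0.0780 to 12.9 ± 2.90 (7.41). Cdhr1, a cadherin known from photoreceptors, stood among the largest losses, with 15290 counts in control and 8 in knockout libraries (lower 2004-fold, 95% exact counting interval 1017 to 4642).

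The start of Igfbp3 is shown because, of the 18 genes, this one had the largest ratio of its control level to the floor of 3 counts per library in the knockout (934) and its start is rich in CG, the dinucleotide at which mammalian DNA can be methylated. The RefSeq window (chr11:7213874-7214173, minus strand, GRCm38.p6) has each CG dinucleotide in capitals.
Igfbp3: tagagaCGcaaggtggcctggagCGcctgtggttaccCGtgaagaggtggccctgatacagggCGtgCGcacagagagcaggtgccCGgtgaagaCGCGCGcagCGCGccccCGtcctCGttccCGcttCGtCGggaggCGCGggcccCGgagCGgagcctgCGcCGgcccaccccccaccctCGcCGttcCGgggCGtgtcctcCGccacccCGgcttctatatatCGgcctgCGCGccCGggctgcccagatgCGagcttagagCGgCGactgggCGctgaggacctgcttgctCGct
It holds 37 CG dinucleotides, against a median of 8 over all 27025 genes with a window and of 21 over tested genes. In these medians each gene is taken at its listed start with the most CG dinucleotides. Of the 18 genes at the floor in the clone, 15 had a RefSeq window, with a median of 25 CG dinucleotides (8 to 43). For the 86 genes with a window in the contractile, calcium and synapse lists, which rose, the median was 6.5. Methylation was not measured.

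The labelled cell type was checked with marker lists. Of 6 skeletal muscle markers 5 were higher and 0 lower, and their summed level was 1977 to 2188 CPM in control and 5565 to 6259 CPM in knockout libraries. Of 7 smooth muscle markers 4 were higher and 1 lower, with sums of 4427 to 4574 and 8019 to 8275 CPM. Acta2 and Tagln, named after their values were seen, rose from 3847 ± 57.6 to 6924 ± 129 and from 279 ± 5.68 to 435 ± 9.45 CPM (0.85 and 0.64). In control myotubes both stood lower than in control myoblasts, at 1919 ± 176 and 48.1 ± 11.4 CPM. Of 8 fibroblast markers 6 were tested, 3 higher and 3 lower, with sums of 963 to 1028 CPM in control and 397 to 620 in knockout libraries. Col1a1 made up most of these sums, and Thy1 and Tcf21 were at 0 in both groups. Of 7 cardiac markers 5 were tested, 4 higher and 0 lower, with Nppa at 0 in both groups. Their sums were 35.1 to 38.3 CPM in control and 94.2 to 112 CPM in knockout libraries. The largest gain among them was that of the myosin gene Myh6, named after its values were seen (0.377 ± 0.261 to 37.6 ± 6.47 CPM). Of 5 cartilage markers 4 were tested, 3 higher and 0 lower (87.7 to 105 against 112 to 125 CPM), and of 6 bone markers 4, 1 higher and 2 lower (98.6 to 106 against 62.7 to 68.4 CPM, with Ibsp at 0 in both). Adipocyte markers (1 higher and 1 lower of 4 tested) summed to 62.0 to 64.3 and 73.0 to 77.6 CPM, and leukocyte markers (1 higher and 1 lower of 4 tested) to 3.52 to 4.46 and 1.85 to 2.65 CPM. Of 6 trophoblast markers 2 were tested, 1 higher and 0 lower. The 6 summed to 0.0749 to 0.154 and 9.52 to 10.3 CPM, with Psg23, Prl3d1 and Gcm1 at 0 in both. Nearly all of the knockout sum was Psg28 (mean 9.85 CPM). The sums of endothelial markers stayed at or under 0.437 CPM and those of epithelial markers at or under 5.45 CPM in every library. The sum of neural markers went from 41.0 to 50.1 CPM in control to 4.73 to 5.08 CPM in knockout libraries, with Sox10 at 0 in both, and nearly all of it was the neuronal tubulin Tubb3, also named after its values were seen (45.6 ± 4.94 to 3.53 ± 0.0708 CPM, -3.69). The part of other cell types in the results was not tested.

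Against the overexpressor clone, which was made with the same kind of guides, 9417 genes (52.6%) differed from the knockout clone. This contrast tests directly where the 2 clones part. Sarcomeric myosins were higher in the knockout clone for 17 of 21 genes and lower for 1 (median 5.06), and Z-disc genes for 31 of 35 and lower for 1. For Myog the overexpressor mean was 297 ± 62.5 CPM (knockout minus overexpressor 1.96, adjusted p = 3.38e-09), between control and knockout, and for Myh3 it was 42.5 ± 13.3 (6.24). For Myod1 (336 ± 36.0 CPM; -0.082, adjusted p = 0.508) and Chrna1 (963 ± 68.3; 0.13, adjusted p = 0.0981) the clones did not differ by this test, which does not show that they are equal. Complex I subunits were higher in the knockout clone for 29 of 36 genes and lower for 0 (median 0.38), and mitosis genes were lower for 26 of 41 and higher for 0. Cholesterol synthesis did not separate the clones in one direction (7 of 25 higher in the knockout clone, 8 lower): for Hmgcs1 the overexpressor mean was 183 ± 29.2 CPM (-0.33, adjusted p = 0.091). Interferon response and antigen presentation genes parted the clones less than they parted knockout from control. Of 42, 14 were lower in the knockout clone than in the overexpressor and 6 higher (median -0.22). Of 36 collagen genes, 19 were higher in the knockout clone and 7 lower, with Col1a1 at 9.85 ± 0.710 CPM in the overexpressor (5.44). The proteoglycan gene Bgn was at 11.9 ± 1.96 CPM there (5.51).

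Differences also followed position on the chromosomes, a pattern noticed after the values were seen and given as a description. Over 10887 genes with a mean of at least 5 CPM, medians of the log2 fold change were taken in 169 windows of 15 Mb that held at least 20 genes each. Of these, 14 windows had a median of at least 0.3 and 17 a median of -0.3 or less. All 9 windows of chromosome 10 were above 0 (0.26 to 0.49), and all 6 windows of chromosome 15 were below 0 (-0.49 to -0.21). The windows of chromosome 1 were also all above 0, and those of chromosomes 9, 13 and 18 were all below 0. The medians of these chromosomes were 0.16 for chromosome 1, -0.10 for 9, -0.24 for 13 and -0.28 for 18. In single libraries, the median of chromosome 10 genes relative to the control mean was 0.32, 0.32 and 0.31 in knockout A, B and C, against -0.015 to 0.013 in the control libraries. For chromosome 15 it was -0.36, -0.36 and -0.35 in the knockout libraries and -0.27, -0.33 and -0.28 in the overexpressor libraries, set against the same control. The shifts of chromosomes 10 and 15 were thus alike in the 3 knockout libraries and small for a single gene, but they ran along the whole chromosome.

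Some shifts had sharp edges. On chromosome 8 the windows at 75 to 90 Mb and 90 to 105 Mb had medians of -0.78 and -0.50, while the windows on either side had 0.076 and 0.28. The overexpressor clone, compared with the same control libraries, had -0.74 and -0.55 in those windows. On chromosome 10 the overexpressor libraries were at 0.088 to 0.10, well under the knockout. Other low stretches of the knockout clone were chromosome 2 at 120 to 135 Mb (-0.39), chromosome 5 at 135 to 150 Mb (-0.37) and chromosome X at 45 to 75 Mb (-0.45 and -0.44), and a high one was chromosome 5 at 15 to 45 Mb (0.34 and 0.38). DNA was not measured, and the copy number of these stretches was not tested. Taking the median of each gene's own window from its value left several list medians close to where they were. They became 4.91 for sarcomeric myosins, 0.37 for complex I and -0.70 for cholesterol synthesis. DNA replication came to -0.35, mitosis to -0.36 and interferon response to -0.96. Other lists moved more relative to their size, such as Polycomb complexes (-0.22 to -0.12), Hox genes (-0.52 to -0.23) and p53 targets (0.12 to 0.023). Matricellular proteins and proteoglycans went from -0.46 to -0.27, and chaperones of the endoplasmic reticulum from -0.22 to -0.037. Collagens moved away from 0, from -0.12 to -0.22.

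**Figure D5:**
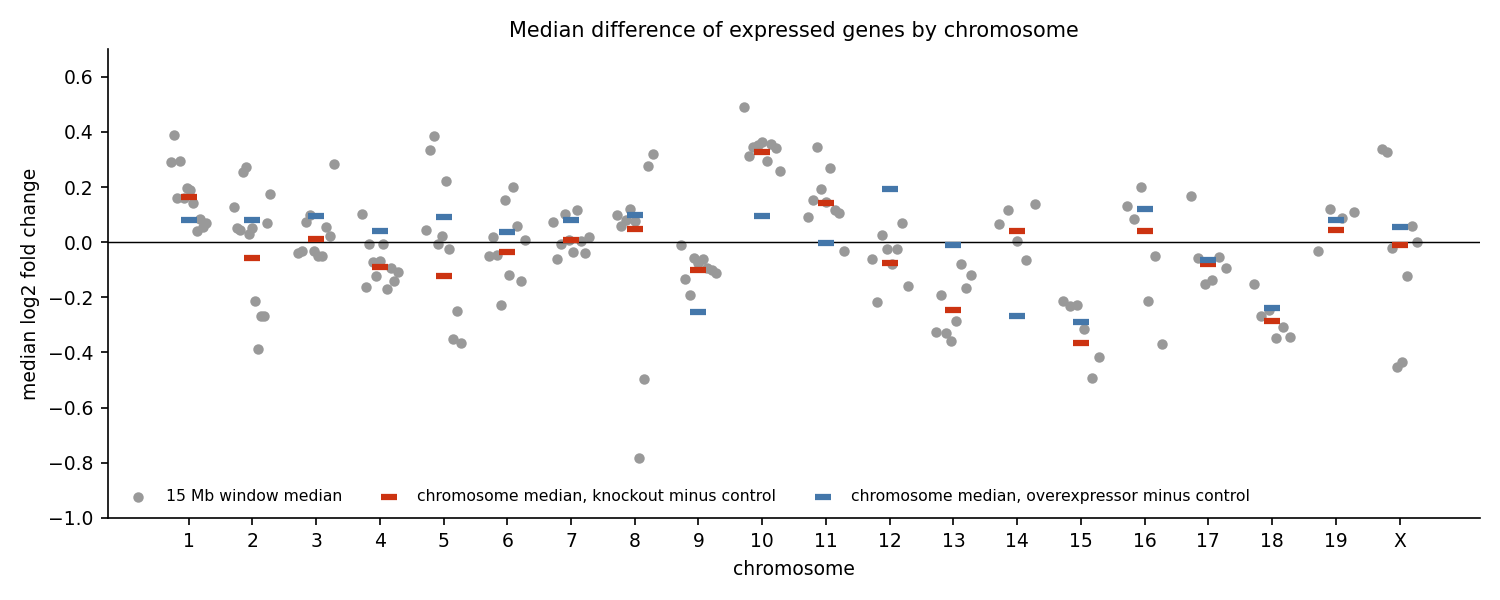
Median log2 fold change of genes with a mean of at least 5 CPM by chromosome: grey points are windows of 15 Mb in the order of their position (knockout minus control), red bars the chromosome medians of knockout minus control and blue bars those of overexpressor minus control, which share the control libraries. Chromosome 10 lies above 0 and chromosome 15 below 0 along their length in the knockout clone, and 2 windows of chromosome 8 stand far below their neighbours.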

How the data were processed

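The deposited table held raw read counts per gene for 18 libraries of polyadenylated RNA; the 6 myoblast libraries of the knockout clone and the vector control were compared. Per the submitters' processing notes, the authors used STAR 2.7.9a, featureCounts (Subread 2.0.3), FastQC 0.11.7 and DESeq2 1.32.0, and the build was mm10; the annotation release and the strand setting are not given in the sources used here, so genes with a partner on the other strand are uncertain. Overlaps with other genes, on either strand, are noted beside some named genes, not beside every one that has them. Of 55450 gene IDs, 55190 matched GENCODE vM21, and the rest held 0.00749% of myoblast counts. Groups came from the sample titles. The counts as deposited were fitted with edgeR 4.0.16 (R 4.3.3, TMM factors, filterByExpr by group, robust quasi-likelihood) in 1 model of all 18 libraries with 6 group terms and 12 residual degrees of freedom, and p-values were adjusted by Benjamini-Hochberg over 17912 genes at 0.05. The spread of all 6 groups thus enters each test. The fit was tested on simulated data. CPM used the same factors. Alternatives were DESeq2 1.42.0, other scalings and filters, fewer libraries, a replicate block, a test against 2-fold and leaving out each library.

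The genes named are anchors set for each list, the 10 highest and 10 lowest fold changes of all genes and the 2 highest and 2 lowest of each list, among called protein-coding or lncRNA genes with separate groups, an ordinary symbol and a mean of at least 5 CPM in the higher group. Lists and genes were chosen with earlier results of these data known, so no p-value is given for a list. Of 1349 list entries, 3 were not found. Genes outside that rule are said to be chosen after their values were seen. Mitochondrially encoded genes were not used here. Promoter windows are RefSeq's, from 250 bases before to 50 after the start. Window medians on chromosomes were added after the data were seen. They are given beside some named genes, not beside every one that lies in a shifted window. A few genes that the naming rule selects are not reported here.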

Additional observations from a re-analysis of the deposited data

How the results depend on the processing

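The count of 9489 called genes stayed within 1.5 times under every alternative but one. It was 9472 with DESeq2's Wald test, 9359 with DESeq2's size factors, 9410 with library totals, 8953 with no filter on low counts, 8719 with a stricter filter, 11150 with only the 6 libraries, 10180 with the 9 myoblast libraries, and 8471 to 8737 when 1 of the 6 libraries was left out. Under a test against a 2-fold difference it was 2025, as that test asks for a larger change. The genes named with a fold change were followed over 14 alternatives, the 2-fold test not among them. Of 2727 pairs of a gene and an alternative that tested it, 2702 kept their direction and side of the threshold, 13 lost the call, 12 gained one and 0 reversed. The called genes that lost it there were Cdkn1c and Igf2, both described above, and Rtl1 was not tested under the stricter filter or in the fits of 6 and 9 libraries. With no filter the adjusted p of Cdkn1c was 0.0831, and with library totals that of Igf2 was 0.0605; the cause was not tested.

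With a replicate block the count was 9126. Whether the letters pair the samples was not settled. The same-letter correlations between control and knockout deviations were 0.149 (A), 0.0945 (B) and 0.120 (C). Control B correlated better with knockout C (0.120) than with its own letter. The remaining different-letter values were lower, from -0.211 to 0.0274. The block is therefore given as an alternative.

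The 3 libraries a group set the precision; below about 3 counts per library (0.0534 to 0.0668 CPM) presence and absence cannot be told apart.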

Other observations

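Some gene lists that belong to no section above were also counted in knockout against control myoblasts. Of 20 genes for atrophy ligases and FoxO, 9 were higher and 5 lower; the muscle ubiquitin ligase Trim63 (MuRF1) went from 0.342 ± 0.0827 to 16 ± 2.17 CPM (5.53, SE 0.15). Of 34 heat shock and immediate early genes, 13 were higher and 12 lower, with the muscle small heat shock gene Hspb7 at 0.207 ± 0.0942 and 27.0 ± 4.83 CPM (6.97, SE 0.22) and the cochaperone Dnajb1 at 149 ± 4.99 and 57.3 ± 0.958 (-1.37, SE 0.078; window median -0.78). Of 25 splicing regulators of muscle, 8 were higher and 6 lower. Rbm24, which promotes muscle exons, went from 5.07 ± 0.583 to 65.5 ± 5.75 CPM (3.69, SE 0.11) and Rbfox1 from 0.217 ± 0.0716 to 4.52 ± 0.925 (4.36, SE 0.26), and Celf2 was at 126 ± 2.35 and 211 ± 1.02 (0.75, SE 0.13). Of 28 long noncoding RNA genes, 13 were higher and 3 lower (5 lower with only the 6 libraries). The secreted factor Angptl4, a lipase inhibitor, went from 38.7 ± 2.07 to 9.39 ± 0.621 CPM (-2.04, SE 0.11).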
